A study of Mus musculus with 20 samples.

Results

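The genes described here encode 10 integrin subunits that bind the extracellular matrix, among 51826 annotated genes counted in cultured mouse kidney myofibroblasts. They were chosen by name, as the matrix-binding subunits of mesenchymal cells. The rule used no measured value, but it was made with earlier results of these data known. They are 6 alpha subunits (Itga1, Itga2, Itga5, Itga8, Itga11 and Itgav) and 4 beta subunits (Itgb1, Itgb3, Itgb5 and Itgb8). All 10 passed the filter on low counts, as did 20407 genes in the whole series.

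Poly-A RNA was sequenced from primary renal myofibroblasts of C57BL/6J mice, the matrix-producing and contractile cells that accumulate in the fibrotic kidney. The cells grew out of minced kidney and were used at passage 2, from wild-type (WT) littermates or from mice lacking the E3 ubiquitin ligase WWP2 (WWP2-/-), and were left untreated or were treated with TGFβ1, the main profibrotic growth factor, at 5 ng/µl for 72 h. Each of the 4 groups (WT, WT with TGFβ1, WWP2-/- and WWP2-/- with TGFβ1) had 5 libraries. The WWP2-/- cells lack the full-length and N-terminal isoforms of the protein. The sex of the mice was not given in the sources used here, and the labels do not tie libraries to mice, although the methods describe data points in general, unless specified otherwise, as single mice or cells of single mice. The p-values therefore measure the spread between libraries.

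Integrins are receptors built from 1 alpha and 1 beta subunit that join the matrix outside the cell to actin inside it. Itgb1 is the shared partner of the collagen receptors (with Itga1, Itga2 or Itga11), of the fibronectin receptor (with Itga5) and of the nephronectin receptor (with Itga8), whereas Itgav can pair with Itgb1, Itgb3, Itgb5 or Itgb8. The Itgav receptors recognize the RGD motif, which is also present in the latency peptide of TGFβ, and several of them release active TGFβ from the matrix. In the kidney, Itga8 marks mesangial cells and some interstitial mesenchymal cells, and Itga11 is a collagen receptor of activated fibroblasts.

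Library totals ranged from 47520759 to 73063697 counts. Values are given as CPM, the counts of a gene scaled to a common library size, after TMM normalization, which corrects for differences in library composition. The deleted gene itself followed the labels: Wwp2 was at 17.03 to 22.7 CPM in the 10 WWP2-/- libraries and at 49.98 to 59.8 CPM in the 10 WT libraries, without overlap. In 2 WWP2-/- libraries the myofibroblast marker Acta2 was far below the rest, at 38.9 CPM in untreated replicate 3 and 50.4 CPM in TGFβ1-treated replicate 1, against 1016 to 3430 CPM in the other 18, so results that rest on these libraries are also given without them. Xist, the transcript of the inactive X chromosome in female cells, exceeded 1 CPM in 4 of 5 libraries of each WT group. It did so in 2 of 5 untreated and 1 of 5 treated WWP2-/- libraries, so the genotypes differed in this balance. The WWP2-/- libraries with Xist included both low-Acta2 libraries (291 and 225 CPM of Xist), so Xist and low Acta2 were not fully separable there. Untreated WWP2-/- replicate 1 was at 33.6 CPM, against 108 to 291 CPM in the other libraries with Xist. Marker sums of cell types differed between libraries. The 8 fibroblast markers, which include collagen I and Postn, summed to 2254 to 18363 CPM in WT, 7690 to 33747 CPM in WT with TGFβ1, 2423 to 7028 CPM in WWP2-/- and 2919 to 9937 CPM in WWP2-/- with TGFβ1. Each of these markers had a lower median in WWP2-/- than in WT cells of the same treatment. For Pdgfra the medians were 75.7 CPM in WT and 123 CPM in WT with TGFβ1, against 1.87 and 0.593 CPM in WWP2-/-. For Dcn they were 306 and 502 against 28.4 and 13.9 CPM, and for Lum 17.7 and 29.4 against 0.202 and 0.0831 CPM. Libraries of the 2 genotypes overlapped for these 3 genes. The 8 macrophage markers summed to 151 to 3917 CPM in WT, 60.5 to 426 CPM in WT with TGFβ1, 75.8 to 1744 CPM in WWP2-/- and 72.2 to 3459 CPM in WWP2-/- with TGFβ1, so wide ranges were present in both genotypes. Of 9 tubular markers 6 passed the filter, and their list summed to 19.1 to 203 CPM in WT, 19.6 to 76.6 CPM in WT with TGFβ1, 7.03 to 428 CPM in WWP2-/- and 8.29 to 290 CPM in WWP2-/- with TGFβ1. Cdh16 reached 366 CPM and Lrp2 47.3 CPM, whereas the segment markers Slc34a1 and Aqp2 had at most 3 counts in every library. The part of cell composition in the results was not tested. In bulk samples, fewer cells of a type and less RNA per cell cannot be told apart.

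The bases just upstream of the start site are shown for 4 genes that carry the main patterns below. Itga8 and Itga11 had the most negative log2 fold changes in TGFβ1-treated WWP2-/- cells, Itga1 had the highest correlation with Acta2 over the 20 libraries, and Itgb1 is the common partner. Each sequence runs 5′ to 3′ over the 250 bases before the RefSeq start site on GRCm38.p6, and capitals mark matches to the motifs named after them.
Itga8, chr2:12301945-12302194, minus strand: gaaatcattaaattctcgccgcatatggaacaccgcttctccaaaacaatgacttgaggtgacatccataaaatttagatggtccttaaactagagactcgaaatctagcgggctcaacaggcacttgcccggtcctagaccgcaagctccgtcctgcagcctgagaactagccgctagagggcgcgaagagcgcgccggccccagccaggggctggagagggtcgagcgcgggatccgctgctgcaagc
Itga11, chr9:62677605-62677854, plus strand: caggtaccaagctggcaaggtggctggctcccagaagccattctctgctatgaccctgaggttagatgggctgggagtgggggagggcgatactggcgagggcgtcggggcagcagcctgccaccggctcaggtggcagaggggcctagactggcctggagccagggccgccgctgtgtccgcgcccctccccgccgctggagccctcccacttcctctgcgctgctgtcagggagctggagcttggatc
Itga1, chr13:115101965-115102214, minus strand: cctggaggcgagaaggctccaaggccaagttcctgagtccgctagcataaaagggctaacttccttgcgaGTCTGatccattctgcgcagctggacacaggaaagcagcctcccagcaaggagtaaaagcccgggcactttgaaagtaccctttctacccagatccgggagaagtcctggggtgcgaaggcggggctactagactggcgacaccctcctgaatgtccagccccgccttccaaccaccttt
Itgb1, chr8:128685404-128685653, plus strand: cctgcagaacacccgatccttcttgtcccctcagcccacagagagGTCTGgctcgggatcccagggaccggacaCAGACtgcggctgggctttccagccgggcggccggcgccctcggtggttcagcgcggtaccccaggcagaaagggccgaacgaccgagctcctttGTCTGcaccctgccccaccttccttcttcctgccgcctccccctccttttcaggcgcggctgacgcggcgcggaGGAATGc
These windows were searched on both strands for CAGAC, the core site of SMAD factors, for CATTCC, a site of TEAD factors, for CAGATG, an E-box used by TWIST factors, for TGANTCA, a site of AP-1, and for the CArG box of SRF. None of them was found for Itga8 or Itga11. The Itga1 window held CAGAC on the minus strand of the gene, at -180 to -176 from the start site, and the Itgb1 window held CAGAC at 3 places and CATTCC at -7 to -2. Over the 9 integrin genes with a RefSeq window (all but Itgb3), CAGAC was present in 4 (Itga1, Itga2, Itgb1 and Itgb8), CATTCC in 1 (Itgb1) and CAGATG in 1 (Itga5). In windows of the same length at 32851 start sites, CAGAC was present in 42.2%, CATTCC in 12.6%, CAGATG in 14.4%, TGANTCA in 6.75% and the CArG box in 1.47%. These matches are descriptions of sequence and do not show binding.

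Levels of the integrin genes spanned a wide range when expressed per kilobase (kb) of annotated exon, the scale used whenever genes are compared with each other. In untreated WT cells, Itgb1 was the most abundant (mean 540 CPM per kb), followed by Itgb5, a vitronectin-receptor beta subunit (258 CPM per kb), and neither overlapped the next gene in any library. Itga5 (41.7 CPM per kb) and Itga11 (39.2 CPM per kb) came next with overlapping libraries, and Itgav, at 24.1 CPM per kb, overlapped Itga11. Below these lay Itgb3 (7.35), Itga1 (2.56) and Itgb8 (1.11 CPM per kb), and at the bottom Itga8 (0.395) and Itga2 (0.327 CPM per kb), which overlapped each other. The order differed in WWP2-/- cells with TGFβ1, where Itga11 came after Itgb3 with means of 15.8 and 23.7 CPM per kb and overlapping libraries, whereas in WT cells with TGFβ1 Itga11 had the highest mean of the alpha subunits, with 57.5 against 7.69 CPM per kb for Itgb3. Itga8 was the lowest of the 10 in both WWP2-/- groups and in WT with TGFβ1, at 0.1204 CPM per kb in WWP2-/- with TGFβ1.

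**Figure D1:**
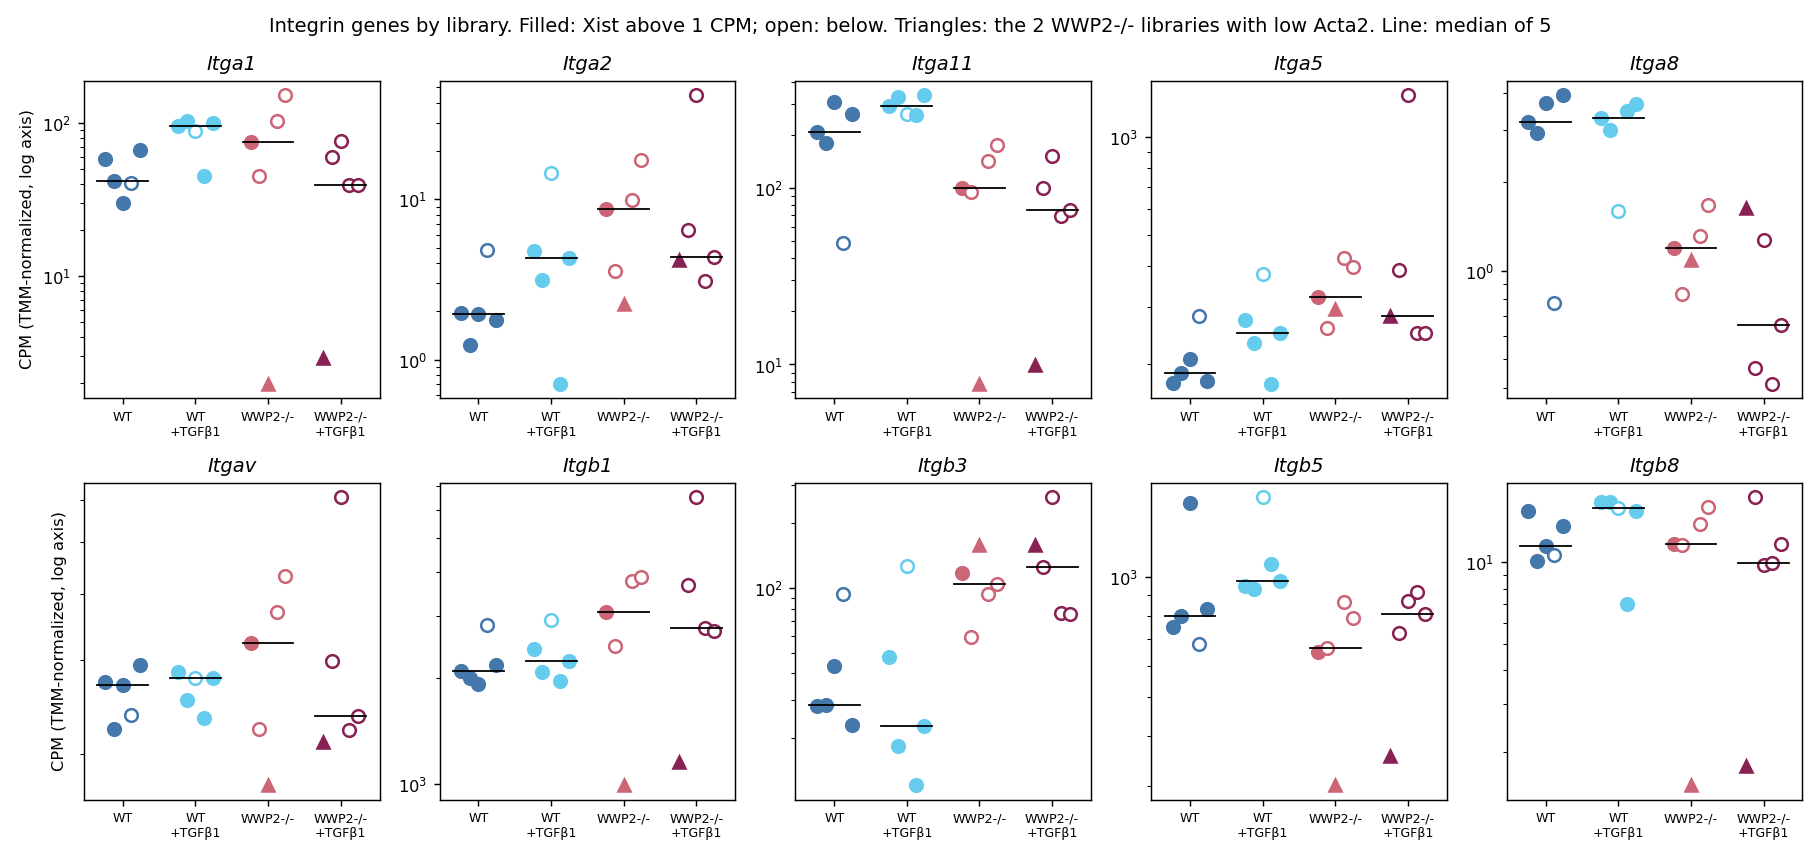
CPM (TMM-normalized, log axis) of the 10 integrin genes in each library of the 4 groups, with the median of 5 as a line, filled symbols for libraries with Xist above 1 CPM, open symbols for those below, and triangles for the 2 WWP2-/- libraries with low Acta2. Itga11 and Itgb5 of all 5 TGFβ1-treated WWP2-/- libraries lie below those of all 5 TGFβ1-treated WT libraries, and the triangles lie at the bottom for Itga1, Itga11, Itgav, Itgb1, Itgb5 and Itgb8.

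The comparison of WWP2-/- with WT cells under TGFβ1 addressed how loss of WWP2 alters the stimulated myofibroblast. Itga8 was the 1 integrin gene of 10 that changed, and it was lower in WWP2-/- cells by edgeR's quasi-likelihood test (adjusted p under 0.05 over all genes tested). By the same test 1239 of the 20407 genes, 6.07%, changed in this comparison, and 810 of them, 3.97%, were lower. Scaled by library totals alone, without TMM, 566 genes were higher and 603 lower, against 429 higher and 810 lower with TMM, and Itga8 was still called. DESeq2 called 3 of the 10 (Itga8, Itga11 and Itgb3), where it called 13.1% of all genes. For Itga11 and Itgb5, every WWP2-/- library was below every WT library, a feature shared by 5.67% of all genes tested in either direction and 3.08% lower. The median log2 fold change of the 10 was -0.13, against 0.05 over all genes tested, with 5 positive and 5 negative values.

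Itga8, the alpha subunit of the nephronectin receptor, was scarce in all groups, with 23 to 213 counts per library. In WT cells with TGFβ1 it was at 3.31, 3.005, 1.60, 3.47 and 3.70 CPM in replicates 1 to 5, and in WWP2-/- cells with TGFβ1 at 1.63, 0.466, 1.27, 0.413 and 0.651 CPM. The lowest WT library and the highest WWP2-/- library overlapped slightly, and the other 4 WWP2-/- libraries were below every WT library. Means were 3.02 ± 0.832 CPM and 0.887 ± 0.539 CPM (SD, n = 5 each), a 3.40-fold difference, and the fitted log2 fold change was -1.76 with a standard error (SE) of 0.43 (edgeR adjusted p = 0.0226). Under edgeR the difference was past the threshold also without the 2 low-Acta2 libraries (log2 fold change -2.10, adjusted p = 0.0103), a fit that called 17.2% of 20182 genes. It was not past the threshold when Xist entered the edgeR fit as a covariate (-1.23, adjusted p = 0.0796) or when any 1 of replicates 2, 4 and 5 of either treated group was left out (edgeR adjusted p from 0.0514 to 0.0596).

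Within the treated libraries with Xist, Itga8 was at 1.63 CPM in the single WWP2-/- library, that with low Acta2, and averaged 3.37 CPM in 4 WT libraries. Without Xist it averaged 0.700 CPM in 4 WWP2-/- libraries and was 1.60 CPM in the single WT library. The difference in mean log2 CPM was -0.86 in both subsets, which hold too few libraries for a test. In untreated cells, Itga8 was at 3.20, 2.94, 3.70, 0.776 and 3.94 CPM in WT replicates 1 to 5 and at 1.19, 0.832, 1.09, 1.31 and 1.67 CPM in WWP2-/- replicates 1 to 5. All WWP2-/- libraries were below 4 of the WT libraries but above WT replicate 4, a library without Xist. That library also had the lowest fibroblast marker sum of the 20 (2254 CPM, against 12758 to 18363 CPM in the other WT libraries) and the highest macrophage marker sum (3917 CPM). The log2 fold change was -1.25 ± 0.42 (SE) and was not past the threshold (edgeR adjusted p = 0.18), whereas without WT replicate 4 it was -1.53 (edgeR adjusted p = 0.0264). That fit called 743 of 20262 genes, against 148 of 20407 with all libraries. Within the untreated libraries, the difference in mean log2 CPM was -1.26 with Xist (2 WWP2-/- and 4 WT) and 0.45 without Xist (3 and 1), opposite in direction. The 2 WWP2-/- libraries with Xist included the low-Acta2 replicate 3. The part of sex in these differences was not tested beyond the covariate, and that of the cell-type markers was not tested. Of the annotated Itga8 exons, 372 bases (5.05%) are shared with the antisense gene E030013I19Rik, whose reads could not be told apart if counting ignored strand.

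The genes whose pattern over the 20 libraries was most like that of Itga8, by Pearson's r of log2(CPM + 0.5) among 13506 genes, were Fbln5 (r = 0.968), an elastic-fibre protein with an RGD motif, Man2a1 (r = 0.961), a Golgi mannosidase of N-glycan processing, and Tbxa2r (r = 0.959), the thromboxane receptor. The 20 libraries share the 4 groups and their depth range, so these values are descriptions. Nephronectin (Npnt), the high-affinity ligand of Itga8, had a log2 fold change of -0.36 in WWP2-/- cells with TGFβ1 (edgeR adjusted p = 0.79).

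Among the collagen-binding alpha subunits, Itga11 separated TGFβ1-treated WWP2-/- from WT libraries without overlap but did not pass the test. It was at 292, 329, 261, 259 and 335 CPM in WT with TGFβ1 and at 9.94, 100, 152, 69.5 and 74.7 CPM in WWP2-/- with TGFβ1. Every WWP2-/- library was below every WT library, and replicate 1, the library with low Acta2, was the lowest. The means were 295 ± 36.1 and 81.2 ± 51.5 CPM (SD, n = 5 each), with a log2 fold change of -1.86 ± 0.64 (SE; edgeR adjusted p = 0.0851). Without the 2 low-Acta2 libraries the log2 fold change was smaller, -1.57 ± 0.39 (SE), and was past the threshold (edgeR adjusted p = 0.0164).

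In untreated cells Itga11 was at 208, 179, 308, 48.5 and 261 CPM in WT and at 100, 95.4, 7.79, 143 and 175 CPM in WWP2-/-. WT replicate 4, with the low fibroblast marker sum, fell among the WWP2-/- libraries, and the log2 fold change of -0.95 ± 0.63 (SE) was not past the threshold (edgeR adjusted p = 0.488), nor was that of -0.67 without the low-Acta2 libraries (edgeR adjusted p = 0.379). Within treated libraries the difference in mean log2 CPM was -4.86 with Xist (1 WWP2-/- library, that with low Acta2, and 4 WT) and -1.47 without (4 and 1), and within untreated libraries -3.02 and 1.45 (2 and 4, then 3 and 1), so the direction was not kept among untreated libraries without Xist. The 2 untreated WWP2-/- libraries with Xist also included a low-Acta2 library.

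Itga1, the collagen receptor subunit with a preference for collagen IV, did not pass the test in any comparison. In untreated cells it was at 58.7, 42.0, 29.9, 40.9 and 66.6 CPM in WT and at 75.4, 45.4, 1.99, 103 and 152 CPM in WWP2-/-. With TGFβ1 it was at 96.3, 104, 88.7, 45.3 and 99.9 CPM in WT and at 2.95, 59.7, 76.2, 39.7 and 39.5 CPM in WWP2-/-. Both low-Acta2 libraries stood far below all others, and the remaining libraries overlapped between genotypes in both conditions. The log2 fold change was 0.66 ± 0.71 (SE) untreated (edgeR adjusted p = 0.683) and -0.99 ± 0.71 with TGFβ1 (edgeR adjusted p = 0.413). Without the low-Acta2 libraries these were 0.96 ± 0.33 and -0.69 ± 0.34 (SE; edgeR adjusted p = 0.136 and 0.167), and with Xist as a covariate the untreated value turned to -0.37.

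Itga2, the other classical collagen receptor alpha subunit, was low in all groups, with means of 2.33 CPM in WT and 8.39 CPM in untreated WWP2-/- cells. Its untreated log2 fold change was 1.85 ± 0.81 (SE; edgeR adjusted p = 0.304), with 3 of 5 WWP2-/- libraries above every WT library. With TGFβ1 the log2 fold change was 1.18 ± 0.80 (SE; edgeR adjusted p = 0.379) and turned to -0.30 without WWP2-/- replicate 3, which was at 44.5 CPM against 3.09 to 6.40 CPM in the other 4.

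Expressed as a share of the summed CPM per kb of the 6 alpha subunits, Itga11 made up 41.2% ± 5.89 in WT with TGFβ1 and 11.4% ± 5.99 in WWP2-/- with TGFβ1 (SD, n = 5 each), with library ranges of 31.8% to 45.6% and 2.44% to 16.2%. In untreated cells the shares were 34.9% ± 14.3 and 15.3% ± 7.62 (SD, n = 5 each), and their ranges, 10.4% to 46.4% and 1.94% to 20.5%, overlapped. Itga5 took the larger share in WWP2-/- cells, with 64.0% ± 8.09 against 37.1% ± 6.40 in WT with TGFβ1. These shares are compositional, since a lower Itga11 raises every other share.

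Itga5, the fibronectin receptor alpha subunit, was at 274, 233, 378, 174 and 249 CPM in WT with TGFβ1 and at 281, 390, 1339, 250 and 250.1 CPM in WWP2-/- with TGFβ1. The groups overlapped, and WWP2-/- replicate 3 stood far above every other library. The log2 fold change was 0.94 ± 0.38 (SE; edgeR adjusted p = 0.14), and 0.15 without that library. In untreated cells, with 176 to 281 CPM in WT and 258 to 424 CPM in WWP2-/-, 4 of 5 WWP2-/- libraries were above every WT library and the log2 fold change was 0.72 ± 0.38 (SE; edgeR adjusted p = 0.382). Fibronectin (Fn1), its ligand, had a log2 fold change of 1.05 with TGFβ1 (edgeR adjusted p = 0.235). Its mean in WWP2-/- with TGFβ1 was 18861 CPM, with a median of 11331 and a highest library at 49595 CPM. In WT with TGFβ1 the mean was 9115 CPM and the median 8224 CPM. The Fn1 fold change without the highest library was not computed.

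Itgav, the alpha subunit of the RGD receptors that activate latent TGFβ, had the narrowest spread in WT cells, at 223 to 294 CPM untreated and 234 to 285 CPM with TGFβ1. In WWP2-/- cells it ranged from 175 to 431 CPM untreated and from 211 to 607 CPM with TGFβ1. Its log2 fold changes were 0.23 untreated and 0.25 with TGFβ1, with approximate 95% intervals of -0.29 to 0.75 and -0.27 to 0.77 (edgeR adjusted p = 0.707 and 0.609). Without the low-Acta2 libraries they were 0.36 in both conditions (edgeR adjusted p = 0.497 and 0.336).

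The beta subunits that can pair with Itgav had log2 fold changes of different sign in WWP2-/- cells with TGFβ1, none past the threshold. Itgb3, the vitronectin receptor beta subunit also found on platelets, was at 47.8, 18.4, 126, 12.1 and 22.8 CPM in WT and at 157, 125, 263, 76.5 and 75.5 CPM in WWP2-/- cells. WT replicate 3 overlapped the WWP2-/- range, and the other 4 WT libraries lay below every WWP2-/- library. The log2 fold change was 1.62 ± 0.57 (SE; edgeR adjusted p = 0.09), and 1.57 ± 0.61 without the low-Acta2 libraries (edgeR adjusted p = 0.083). Without WT replicate 3, the library that overlapped, it was 2.45 and past the threshold (edgeR adjusted p = 0.0064). That fit called 2730 of 20304 genes, against 1239 of 20407 with all libraries. Untreated, Itgb3 was at 28.3, 28.5, 43.2, 93.9 and 23.0 CPM in WT and 117, 59.2, 157, 93.7 and 104 CPM in WWP2-/- cells, with a log2 fold change of 1.29 ± 0.56 (SE; edgeR adjusted p = 0.298). Without the low-Acta2 libraries the untreated value was 1.10 (edgeR adjusted p = 0.367). In each condition the 1 WT library without Xist was the highest for Itgb3. These were untreated replicate 4, whose marker sums are given above, and treated replicate 3, which had 7690 CPM of fibroblast markers against 21811 to 33747 CPM in the other treated WT libraries and 187 CPM of endothelial markers against 29.8 to 74.7 CPM. Within treated libraries the difference in mean log2 CPM was 2.80 with Xist (1 WWP2-/- and 4 WT) and -0.10 without (4 and 1), and within untreated libraries 2.16 and -0.17 (2 and 4, then 3 and 1), so the direction was not kept among libraries without Xist. The treated WWP2-/- library with Xist was a low-Acta2 library, and the untreated WWP2-/- libraries with Xist included the other, so Xist and low Acta2 were not fully separable here.

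Itgb5, the beta subunit of the other vitronectin receptor, separated the treated groups without overlap. It was at 949, 935, 1581, 1074 and 979 CPM in WT with TGFβ1 and at 356, 725, 870, 916 and 806 CPM in WWP2-/- with TGFβ1. The highest WWP2-/- library was just under the lowest WT library, and the log2 fold change of -0.59 ± 0.29 (SE) did not pass the test (edgeR adjusted p = 0.223). In untreated cells, WT libraries were at 679 to 1525 CPM and WWP2-/- libraries at 302 to 864 CPM, with a log2 fold change of -0.49 ± 0.29 (SE; edgeR adjusted p = 0.444). Without the low-Acta2 libraries the log2 fold changes were -0.42 with TGFβ1 and -0.32 untreated (edgeR adjusted p = 0.208 and 0.491).

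The ratio of Itgb3 to Itgb5 per kb sets these beta subunits side by side. With TGFβ1 it was 0.0222 on average in WT (range 0.00678 to 0.0479) and 0.132 in WWP2-/- cells (range 0.0503 to 0.266), without overlap. Untreated, the means were 0.0323 (range 0.0167 to 0.0833) and 0.124 (range 0.0536 to 0.314), with overlap. The highest WWP2-/- ratio in each condition was that of the low-Acta2 library. Without these libraries the WWP2-/- ranges were 0.0503 to 0.182 with TGFβ1 and 0.0536 to 0.108 untreated. How often ratios of other gene pairs separate the groups was not computed. Itgb5 remained the more abundant of the pair in every library.

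Itgb8, which binds latent TGFβ with Itgav, was at 15.4, 10.1, 11.5, 10.7 and 13.6 CPM in WT and at 11.7, 11.5, 1.51, 13.9 and 16.0 CPM in WWP2-/- cells. With TGFβ1 it was at 16.7, 16.6, 15.8, 7.05 and 15.4 CPM in WT and at 1.79, 17.4, 9.76, 9.92 and 11.7 CPM in WWP2-/-. Outside the low-Acta2 libraries the genotypes overlapped, and the log2 fold changes of -0.17 ± 0.49 (SE) untreated and -0.50 ± 0.49 with TGFβ1 did not pass the test (edgeR adjusted p = 0.892 and 0.568). Without those libraries they were 0.092 and -0.24 (edgeR adjusted p = 0.875 and 0.521), so the untreated sign turned.

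Itgb1, the common partner, was at 2421, 2077, 2921, 1957 and 2228 CPM in WT with TGFβ1 and at 1157, 3675, 6525, 2779 and 2712 CPM in WWP2-/- with TGFβ1. The WWP2-/- libraries lay on both sides of the WT range, with the low-Acta2 library at the bottom. The log2 fold change was 0.54 ± 0.36 (SE; edgeR adjusted p = 0.379), and without the 2 low-Acta2 libraries 0.76 ± 0.25 and past the threshold (edgeR adjusted p = 0.0459). With Xist as a covariate the sign turned, to -0.15 (edgeR adjusted p = 0.842).

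**Figure D2:**
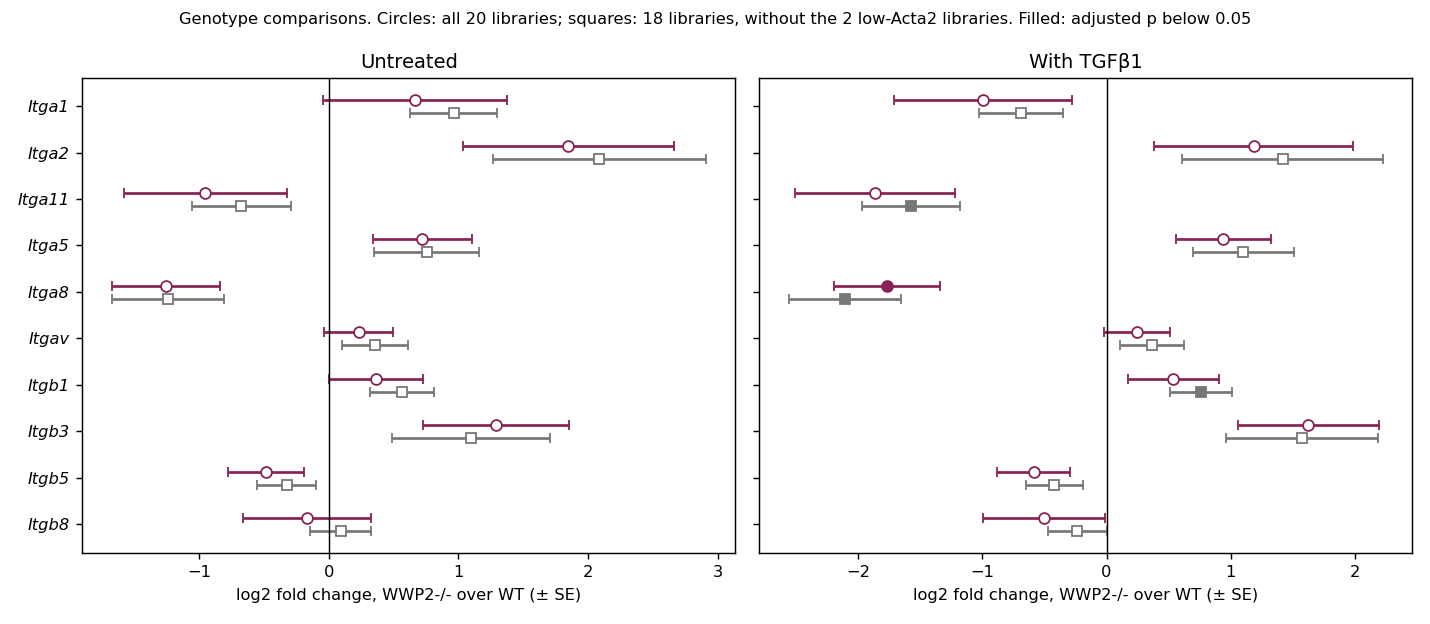
Log2 fold change of WWP2-/- over WT with its SE for the 10 integrin genes, untreated (left) and with TGFβ1 (right), from all 20 libraries (circles) or from the 18 without the low-Acta2 libraries (squares), filled where the edgeR adjusted p is under 0.05. With TGFβ1, Itga8 is filled in both fits (-1.76 and -2.10), and Itga11 (-1.57) and Itgb1 (0.76) are filled in the 18-library fit, while no symbol is filled for untreated cells.

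In untreated cells no integrin gene of the 10 passed edgeR's test between genotypes, where 0.725% of all genes tested did, and no gene of the 10 had groups without overlap, against 2.79% of all genes. At an unadjusted p under 0.05, 3 of the 10 passed (Itga2, Itga8 and Itgb3), as did 3044 of all 20407 genes, and DESeq2 called 0 of the 10 and 743 of all genes. The median log2 fold change of the 10 was 0.30, against 0.08 over all genes. The genotype effect with TGFβ1 minus the untreated genotype effect is the interaction term. It passed the edgeR test for 0 of the 10 integrin genes and 0 of all genes (0.0%), with adjusted p from 0.813 to 0.998. At an unadjusted p under 0.05 the interaction was called for 0 of the 10 and 1424 of all genes, and DESeq2 called 0 of the 10 and 10 of all genes.

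None of the 10 integrin genes passed the test for TGFβ1 in either genotype. No gene of the 10 had treated and untreated libraries without overlap, where 1.35% of all genes did in WT and 0.377% in WWP2-/- cells. In WT cells all 10 log2 fold changes were positive under TMM, from 0.03 for Itgav to 1.24 for Itga2, with a median of 0.25 against 0.02 over all genes, but under library totals Itga8 (-0.043), Itgav (-0.058) and Itgb1 (-0.022) were negative, and with the replicate block Itgb3 was at -0.28. None passed edgeR's test (adjusted p from 0.864 to 0.995) or had an unadjusted p under 0.05, and DESeq2 called 0 of the 10. No gene of the 20407 passed edgeR in this comparison (0.0%), with 1397 at an unadjusted p under 0.05 and 27 called by DESeq2. Itga1 had the most libraries apart, with 4 of 5 treated WT libraries above every untreated one (log2 fold change 0.87 ± 0.71, SE, edgeR adjusted p = 0.903). In WWP2-/- cells the log2 fold changes with TGFβ1 ranged from -0.79 (Itga1) to 0.57 (Itga2), 6 positive and 4 negative, with none called by edgeR (adjusted p of 1.0 for each of them) and none by DESeq2. Over all genes edgeR called 0 (0.0%), with 713 at an unadjusted p under 0.05 and 49 called by DESeq2. The 4 comparisons share groups in pairs, so their values are not independent.

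**Figure D3:**
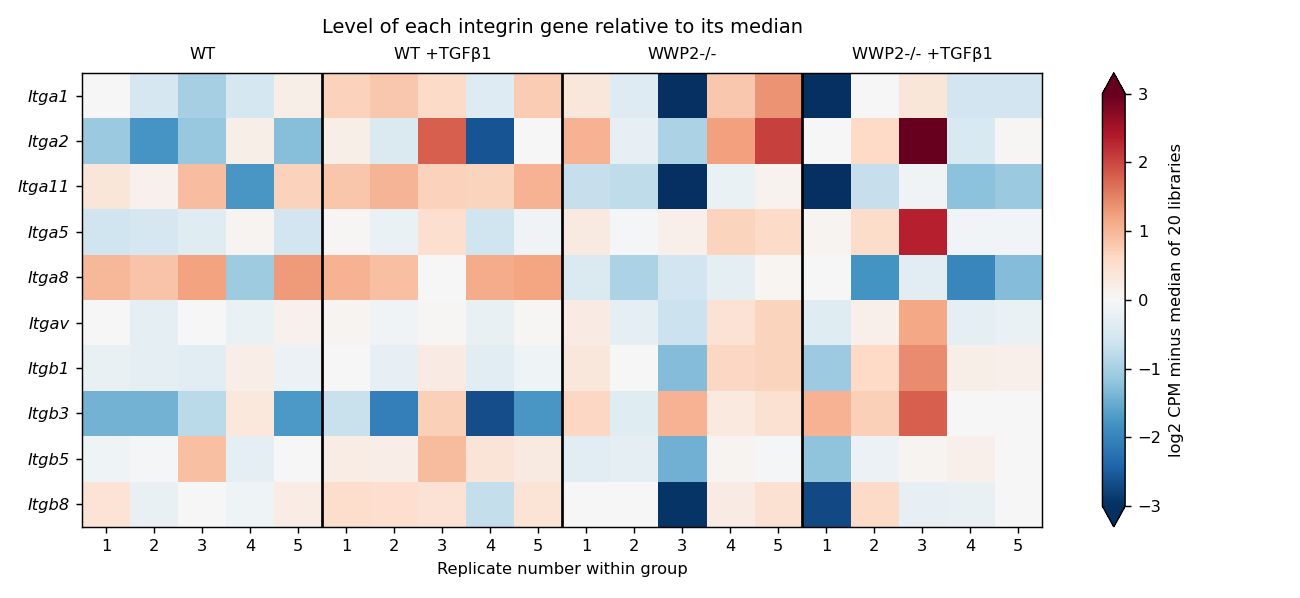
Log2 CPM of each integrin gene (rows) minus its median over 20 libraries, by library (columns, replicates 1 to 5 of each group), in red where above and blue where below. Untreated WWP2-/- replicate 3 and TGFβ1-treated WWP2-/- replicate 1 are blue for Itga1, Itga11, Itgav, Itgb1, Itgb5 and Itgb8, and Itga8 is below its median in 8 of 10 WWP2-/- libraries.

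The 2 low-Acta2 libraries split the 10 genes. Itga1, Itga11, Itgav, Itgb1, Itgb5 and Itgb8 each took their lowest and second lowest values of all 20 libraries there, in the same order as Acta2. The share of all genes tested that did the same was not computed, so this is not shown to be particular to integrin genes. The gap was largest for Itga1, where the median of the other 4 libraries of the group was 44.8 times the value in untreated replicate 3 and 16.9 times that in treated replicate 1. For Itga11 these ratios were 15.6 and 8.80, and for Itgb8 8.46 and 6.04. Itgb3 went the other way, at 157 CPM in both libraries, ranks 18 and 19 of 20 from the lowest. Itga5 was within the range of the other 4 libraries of each group, and Itga8 in treated replicate 1 was the highest of its group (1.63 CPM). Acta2 is the smooth muscle actin of the contractile apparatus, and summed contractile markers were 43.8 and 56.2 CPM in these libraries, the lowest in each group, against medians of 2132 CPM in WWP2-/- and 1633 CPM in WWP2-/- with TGFβ1. Other marker sums were also the lowest in each group there. They were 7.03 and 8.29 CPM for tubular, 8.82 and 11.1 CPM for endothelial and 75.8 and 72.2 CPM for macrophage markers. Pericyte and mesangial markers summed to 28.1 and 32.9 CPM, and podocyte markers to 33.6 and 38.8 CPM. Fibroblast marker sums, at 3597 and 4595 CPM, were within the range of the other libraries of each group. The part of cell composition in these values was not tested.

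Across the 20 libraries Pearson's r of log2 levels with Acta2 was 0.952 for Itga1 and 0.898 for Itgb8, and over the 18 other libraries 0.653 and 0.102. These values, which describe libraries that share groups and depth, rest in part on the 2 libraries for Itga1 and largely on them for Itgb8. Over the same 18 libraries, Itga8 and Itga11 had r = 0.892 (0.578 over 20), Itga5 and Itgb1 had r = 0.954 (0.682 over 20), Itgb1 and Itgb3 had r = 0.869 (0.317 over 20), and Itga8 and Itgb3 had r = -0.728 (-0.710 over 20). Itga2 and Itga5 had r = 0.929 over 18 and 0.913 over 20.

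**Figure D4:**
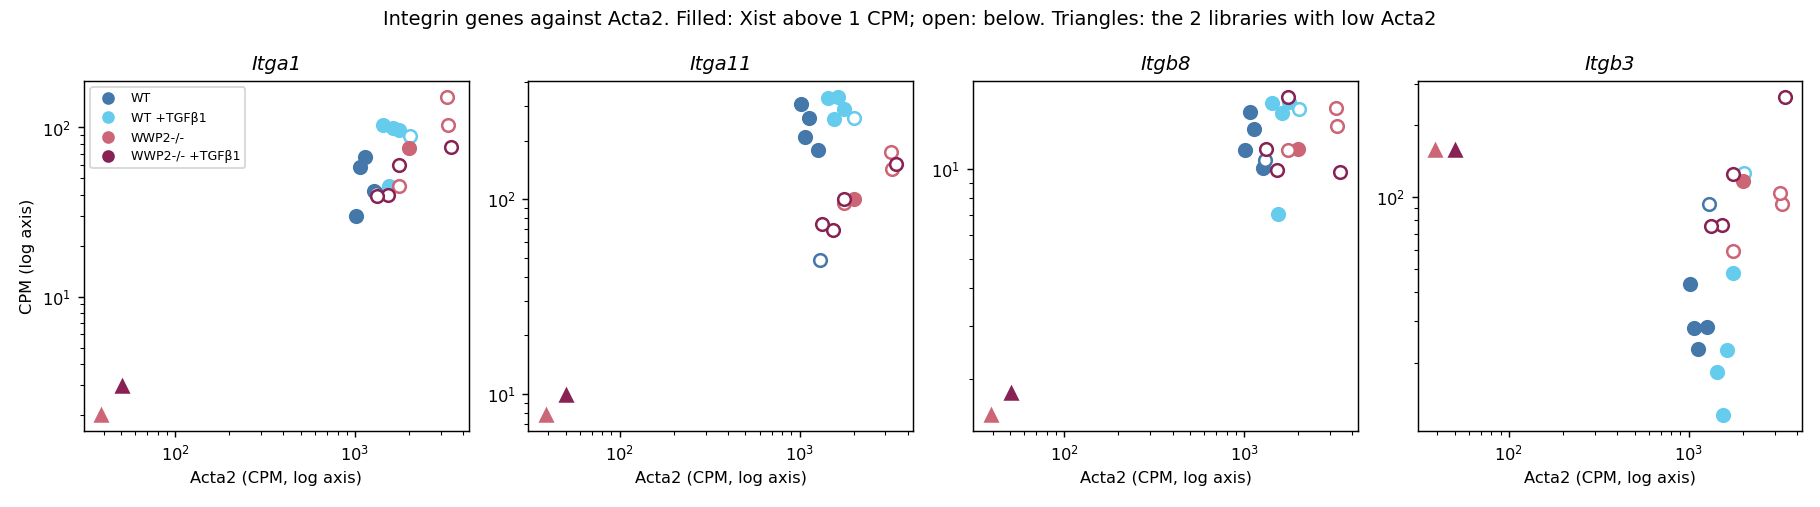
CPM of Itga1, Itga11, Itgb8 and Itgb3 against Acta2 CPM (both on log axes) in each of the 20 libraries, coloured by group, filled where Xist is above 1 CPM, with triangles for the 2 low-Acta2 libraries. The triangles, at 38.9 and 50.4 CPM of Acta2, hold the lowest Itga1, Itga11 and Itgb8 and are among the highest for Itgb3 (157 CPM each).

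Genes that act with these subunits were counted from lists of other integrin subunits, adhesion adaptors, matrix ligands, and genes entered as inhibitors of integrin activation. With TGFβ1, WWP2-/- against WT, 1 of 15 tested other subunits was higher and 1 was lower by edgeR, where 6.07% of all genes were called in either direction. The higher was Itgal, a leukocyte subunit (log2 fold change 3.08, edgeR adjusted p = 0.0466), and the lower was Itga9, which binds tenascin and osteopontin (-1.16, edgeR adjusted p = 0.0241). The other subunits had a median log2 fold change of 1.38 against 0.05 over all genes, beside macrophage marker sums of 72.2 to 3459 CPM in WWP2-/- with TGFβ1 and 60.5 to 426 CPM in WT with TGFβ1, and the part of leukocytes in it was not tested.

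Of 24 adaptors, which link the integrin tails to actin, 0 were higher and 3 were lower in the same comparison, where 3.97% of all genes were lower. They were Lims2, an adaptor of the integrin-linked kinase complex (log2 fold change -1.11, edgeR adjusted p = 0.0451), Parva, an actin-binding partner of that kinase (-0.93, edgeR adjusted p = 0.0477), and Tns2, a tensin (-0.70, edgeR adjusted p = 0.0414). None of the 6 genes on the inhibitor list passed (Itgb1bp1, Sharpin, Fblim1, Dok1, Shank1 and Shank3). Their roles were assigned by the list and not tested, and that of Fblim1 is not clearly inhibitory. Of 23 ligands tested, 0 were higher and 4 were lower, beside the same 3.97% of all genes. They were the collagen I chains Col1a2 (-2.63, edgeR adjusted p = 0.0142) and Col1a1 (-1.98, edgeR adjusted p = 0.0492), the matricellular protein Postn (-2.44, edgeR adjusted p = 0.0407) and Ltbp1, which anchors latent TGFβ in the matrix (-1.86, edgeR adjusted p = 0.0311). The median log2 fold change was -0.18 for the adaptors, -0.19 for the inhibitor list and -0.45 for the ligands. Tns2, Col1a1 and Ltbp1 lay outside the naming rule and were chosen after their values were seen, and these lists were drawn up with the results of these data known. In the other comparisons no gene of the 4 lists passed edgeR.

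Osteopontin (Spp1), a ligand of Itgav receptors and Itga9, had a log2 fold change of 2.03 with TGFβ1 in the same genotype comparison (edgeR adjusted p = 0.11). The growth factor Tgfb1, whose latent form binds Itgav receptors, had a log2 fold change of 0.76 (edgeR adjusted p = 0.0512), with every WWP2-/- library above every WT library. Groups without overlap, in either direction, were found for 5.67% of all genes tested. The gap for Tgfb1 was narrow, with the highest WT library at 103 CPM and the lowest WWP2-/- library at 106 CPM.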

How the data were processed

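The authors sequenced poly-A RNA of 20 cultures of primary renal myofibroblasts (150 bp reads), aligned it with STAR to GRCm38, counted reads per gene with featureCounts and deposited raw gene counts. The strand setting was not given in the sources used here. Gene names and exon lengths came from GENCODE M21, which named 51633 of 51826 genes. Groups of 5 libraries followed the labels. The 20407 genes reaching 5 counts in 5 or more libraries were scaled by TMM and fitted with edgeR 4.0.16 (R 4.3.3; quasi-likelihood test, 4 groups, no block). P-values were adjusted by Benjamini-Hochberg over these genes, with a threshold of 0.05. SE was the absolute log2 fold change over the square root of F. The script was tested on simulated data. Alternatives were DESeq2 1.42.0, other scalings, filters and covariates, a replicate block, 2-group fits and each library left out. Leaving out both low-Acta2 libraries, and the motifs, were chosen after seeing the data. Named were the 10 integrin genes, up to 2 rises and 2 falls per list among called genes, known ligands, and the 3 nearest patterns of called members. Members and lists were chosen with earlier results of these data known. No 2 libraries of a group agreed within sampling noise. Promoter sequences are from RefSeq.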

Additional observations from a re-analysis of the deposited data

Results flagged for a closer look

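In 10 of the 40 sets of 5 libraries (10 integrin genes in 4 groups), 1 library stood apart by Dixon's test on CPM. The rate of 1 in 20 for this test holds for normally distributed values, which CPM need not be. The count is therefore not set against chance. On this scale neither low-Acta2 library was flagged. In WWP2-/- with TGFβ1, replicate 3 was the highest for Itga2 (44.5 CPM), Itga5 (1339 CPM) and Itgav (607 CPM). In untreated WT, replicate 4, the library without Xist, was the highest for Itga2 (4.796 CPM), Itgb1 (2825 CPM) and Itgb3 (93.9 CPM). Replicate 3 was the highest for Itgb5 in untreated WT (1525 CPM) and in WT with TGFβ1 (1581 CPM). In WT with TGFβ1, replicate 4 was the lowest for Itga1 (45.3 CPM) and Itgb8 (7.05 CPM). These sets are not independent, since the genes share libraries.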

How the results depend on the processing

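With TGFβ1, the count of integrin genes called between genotypes was 1, and it was 0 at an adjusted p of 0.01, 0 with Xist as a covariate and 0 when only the 2 groups compared were fitted (Itga8 log2 fold change -1.76, edgeR adjusted p = 0.0602). It was 3 by DESeq2 (Itga8, Itga11 at adjusted p = 0.028 and Itgb3 at adjusted p = 0.0311) and 3 without both low-Acta2 libraries. Leaving out each library gave 0 to 2 with TGFβ1, with 2 without untreated WWP2-/- replicate 3 (Itga11, edgeR adjusted p = 0.0321) or without WT replicate 3 with TGFβ1, and 0 to 1 untreated. The count did not change with DESeq2 size factors, library totals, no filter or the stricter filter. Over all genes, calls with TGFβ1 ranged from 101 at the threshold of 0.01 to 3480 without the low-Acta2 libraries, with 569 in the 2-group fit, 585 with Xist, 670 with the replicate block, 790 with no filter and 2672 by DESeq2, and from 453 to 2730 with 1 library left out. Untreated, the 148 calls became 1 at 0.01, 1 with the replicate block, 1 in the 2-group fit, 79 with Xist, 271 without the low-Acta2 libraries and 743 by DESeq2, and 1 to 743 with 1 library left out. The causes were not tested.

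Same-numbered libraries did not deviate together (r from -0.67 to 0.576 between WT and WT with TGFβ1, and from -0.295 to 0.502 between the WWP2-/- groups), so the numbers were not taken as pairs. Untreated WWP2-/- replicates 1 and 3 deviated most like treated replicate 1, which with replicate 3 has low Acta2. Untreated WT replicate 4 deviated most like treated replicate 3, and both lack Xist. Whether such libraries share a mouse is not given, so they may not be separate observations. With the replicate block, 2 integrin genes were called with TGFβ1, Itga8 and Itgb3 (1.85, edgeR adjusted p = 0.0483).

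Of the log2 fold changes of the 10 genes under all alternatives, 1396 kept direction and side of the threshold and 58 changed sign, none of them called. By library totals these were, for TGFβ1 in WT, Itga8 (-0.043), Itgav (-0.058) and Itgb1 (-0.022), and for TGFβ1 in WWP2-/-, Itgav (-0.014). With the replicate block they were Itgb3 for TGFβ1 in WT (-0.28), Itga2 for TGFβ1 in WWP2-/- (-0.12) and the Itgav interaction (-0.033). With the block within genotype they were Itgb3 in WT (-0.18), Itga2 (-0.24) and Itgav (-0.034) in WWP2-/-, and the interactions of Itga5 (-0.15) and Itgav (-0.072). With Xist they were Itgb1 between genotypes with TGFβ1 (-0.15), Itga1 (-0.37) and Itgb1 (-0.13) untreated, Itgb3 for TGFβ1 in WT (-0.0060), Itgav for TGFβ1 in WWP2-/- (-0.00071) and the interactions of Itgav (-0.029) and Itgb1 (-0.019). Without the low-Acta2 libraries it was Itgb8 untreated (0.092).

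With 1 library left out, sign changed within these ranges. Between genotypes they were -0.30 to 1.95 (Itga2) and -0.15 to 0.35 (Itgav) with TGFβ1 and -0.38 to 0.092 (Itgb8) untreated. For TGFβ1 in WT they were -0.20 to 0.21 (Itga8), -0.021 to 0.084 (Itgav), -0.019 to 0.17 (Itgb1) and -0.77 to 0.55 (Itgb3). For TGFβ1 in WWP2-/- they were -0.90 to 1.07 (Itga2), -0.21 to 0.75 (Itga5), -0.33 to 0.24 (Itgav), -0.13 to 0.47 (Itgb1), -0.013 to 0.35 (Itgb5) and -0.40 to 0.16 (Itgb8). For the interaction they were -2.13 to 0.11 (Itga2), -0.55 to 0.40 (Itga5), -0.36 to 0.21 (Itgav), -0.21 to 0.40 (Itgb1), -0.13 to 1.18 (Itgb3) and -0.35 to 0.082 (Itgb5). Itga8 rested on 23 to 213 counts per library, and its SE with TGFβ1 (0.43) was smaller than that of the more abundant Itga1 (0.71).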
